A study of Mus musculus with 12 samples.

Results

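The genes described here are 32 genes of the lysosome and of autophagy, of 17875 genes in the deposited tables. They were chosen by gene symbol, with earlier results of these data known. All 32 were in each of the 12 tables and all passed the filter on low counts. Messenger RNA was sequenced from subcutaneous colorectal tumours of mice in 4 groups of 3 libraries. The high-dose group carried a tumour, was put under chronic stress and was given Xiao-chai-hu decoction, a herbal mixture used in Chinese medicine, at a high dose. The low-dose group had the same tumour and stress with a low dose of the decoction. The stress group had the tumour and chronic stress alone, and the control group had the tumour alone. All 4 groups thus carried the tumour, and no library came from normal tissue. The amounts of the decoction, the stress procedure, the implanted tumour cells and the strain, age and sex of the mice were not given in the sources used here. Nothing in them says that the libraries of a group came from separate mice, so the p-values below measure the spread between libraries.

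The lysosome is the acidic compartment in which proteases, glycosidases and lipid hydrolases break down material delivered by endocytosis and autophagy. In autophagy the ULK1 kinase and the Beclin 1 lipid kinase complex start a membrane sac. The ATG7 and ATG5 conjugation enzymes then attach proteins of the LC3 and GABARAP family to its lipids, receptors such as p62/SQSTM1 load cargo, and the closed vesicle fuses with the lysosome. The transcription factor TFEB binds E-box motifs with the core CACGTG in promoters of many lysosomal genes. In tumours both the cancer cells and macrophages, which are rich in cathepsins, use these genes.

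The E-box core, which reads the same on both strands, was looked for in the RefSeq promoter windows of the members (GRCm38.p6, 250 bases before and 50 after a transcript start). It stood in the windows of 11 of the 26 members with a window, that is in 11 of 30 windows or 36.7%, against 7.15% of the 32851 windows of all genes. The longer TCACGTG, searched on both strands and overlapping the core, was in 30.0% of member windows against 3.77% of all windows, and TCACGTGA was in 16.7% against 0.974%. Such boxes are known from lysosomal genes, so a high share in a list of lysosomal genes is a known property of the list and no independent result. The box nearest the start is shown for each of the 11 genes, with the core in capitals and on the strand of the gene.
Ctsd, chr7:142387910-142387935, minus strand: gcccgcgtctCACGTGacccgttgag
Ctsl, chr13:64370741-64370766, minus strand: cgttagaagcCACGTGctgatctaaa
Ctsa, chr2:164833768-164833793, plus strand: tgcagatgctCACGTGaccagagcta
Glb1, chr9:114401020-114401045, plus strand: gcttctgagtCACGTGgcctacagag
Gaa, chr11:119267813-119267838, plus strand: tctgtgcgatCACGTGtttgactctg
Gla, chrX:134601184-134601209, minus strand: agatctcggtCACGTGagcaactctc
Lamp1, chr8:13159136-13159161, plus strand: gtgaccacatCACGTGcggaacggag
Mcoln1, chr8:3500464-3500489, plus strand: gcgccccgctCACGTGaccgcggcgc
Atp6v0d1, chr8:105566052-105566077, minus strand: ctactgcggtCACGTGagacgcggtg
Atg5, chr10:44268315-44268340, plus strand: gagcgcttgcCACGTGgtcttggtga
Atg7, chr6:114670954-114670979, plus strand: tattggtggtCACGTGtgcagtaagt

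Lamp1 held 4 boxes in its window, and Ctsd, Ctsa, Gla and Mcoln1 held 2 each, which gives 18 boxes in all, 17 of them before the start. Of the 18 cores, 5 lie inside the annotated gene, near a start within it, namely those of Ctsl, Atg5 and Atg7 and both of Ctsa, and the core of Atp6v0d1 overlaps the first bases of its gene. The 250 bases before the start of Ctsd are shown whole, since Ctsd had the largest fold change of the members and both of its boxes lie there (chr7:142387828-142388077, minus strand).
Ctsd, bases before the start: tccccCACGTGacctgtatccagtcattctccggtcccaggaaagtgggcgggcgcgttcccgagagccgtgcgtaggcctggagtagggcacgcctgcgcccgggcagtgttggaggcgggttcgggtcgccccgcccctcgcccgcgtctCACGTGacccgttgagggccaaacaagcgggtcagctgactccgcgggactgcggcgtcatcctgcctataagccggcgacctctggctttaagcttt
Of the members with a window, 15 had no such core in it, among them Tfeb, Ctss, Ctsz, Wipi1, Sqstm1 and Gabarap. Asah1, Atp6v1h, Becn1, Ctsb, Map1lc3a and Npc1 had no window in the table used. A match is a string of letters and not a bound site.

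The libraries held 16734741 to 17950195 estimated read counts, with 15476 to 15775 genes above 0, and no member had fewer than 78 counts in any library. In 3 libraries (high dose replicate 2, low dose replicate 3 and control replicate 1) 20 skeletal muscle genes lay on average 2.71 to 4.07 log2 units above their mean over all libraries. In low dose replicate 2 the log2 levels of genes, each relative to its mean over all libraries, ran against log2 transcript length. The correlation across genes was -0.55, and -0.17 to 0.32 in the other 11 libraries. Of 9 epithelial markers in the tables, which the tissue label calls for, 7 stayed at or under 1.48 TPM (a measure scaled for transcript length and library size by the authors) in every library. Among them Krt8, Krt18, Epcam, Cdx1 and Cldn7 were at 0 in at least 1 library. Cdh1 had 1.71 to 6.46 TPM, and Lgals4 had 7.54 to 23.1 TPM, around the median over all genes of 10.6 TPM. The tissue label was thus not matched by the keratins, Epcam, Cdx1, Vil1 or Cldn7. Cdh1 lay below the median over all genes, and Lgals4, lying around it, was no clear match either. Cdx2, also on the list of markers, was not in the tables. In bulk tissue, fewer cells of a type and less RNA per cell cannot be told apart.

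Most of these genes were abundant. Their mean over 12 libraries ran from 5.29 TPM for Tfeb to 1002 TPM for Ctsl, with 16 of 32 above 100 TPM and a median over all genes of 10.6 TPM. Together they made up 0.632% (stress replicate 3) to 0.815% (low dose replicate 1) of all TPM. The proteases led. Cathepsin L (Ctsl) reached 748 to 1493 TPM and cathepsin B (Ctsb), another cysteine protease, 565 to 914 TPM. The cathepsins S (Ctss), Z (Ctsz) and D (Ctsd) followed with means of 435, 407 and 403 TPM, cathepsin A (Ctsa), a carboxypeptidase, with 129 TPM, and the tripeptidyl peptidase Tpp1 with 59.6 TPM.

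Prosaposin (Psap), the precursor of the saposins that present lipids to their hydrolases, was second of all members at 904 TPM, and progranulin (Grn) had 436 TPM. The membrane glycoproteins Lamp1 and Lamp2 had 471 and 239.8 TPM. Acid ceramidase (Asah1) stood at 359.6 TPM, far above the glycosidases, of which Hexa (ganglioside breakdown) had 99.8 TPM, Gaa (glycogen) 62.5 TPM, Glb1 (beta-galactosidase) 42.3 TPM and Gla (alpha-galactosidase) 12.3 TPM. The soluble cholesterol carrier Npc2 had 188 TPM, and its membrane partner Npc1 18.5 TPM. The calcium channel Mcoln1 had 29.6 TPM, and the proton pump subunits Atp6v1h and Atp6v0d1, which serve the acidification of the lysosome, had 76.8 and 62.9 TPM.

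Among autophagy genes the cargo receptor Sqstm1 (493 TPM) and the LC3 relative Gabarap (339 TPM) stood highest. Map1lc3b had 103 TPM, Gabarapl1 67.1 TPM and Map1lc3a 33.2 TPM. Genes of the early steps were lower, apart from Becn1 at 125 TPM and Wipi1, which binds lipid on the forming membrane, at 73.5 TPM. Atg5 had 25.9 TPM, Atg7 16.5 TPM and Ulk1 13.4 TPM.

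**Figure D1:**
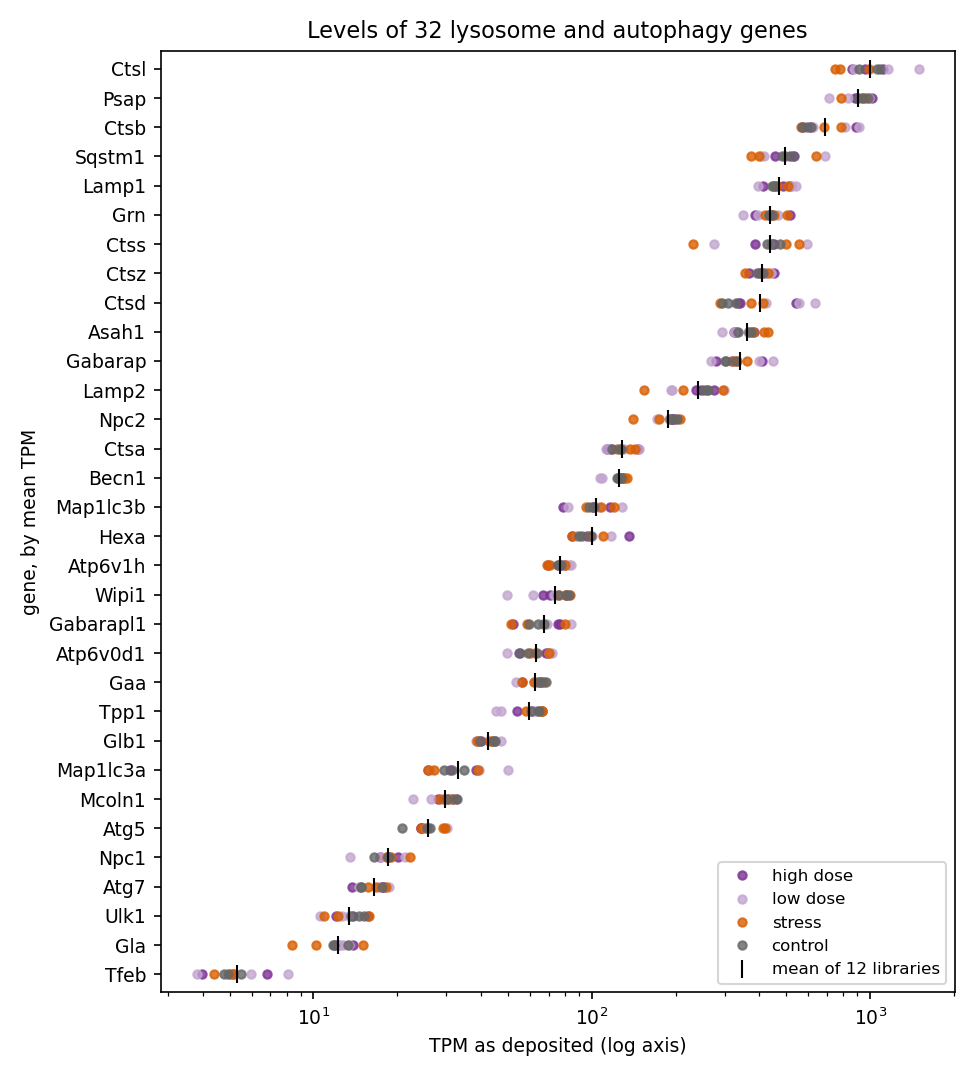
TPM of the 32 genes in each of the 12 libraries (horizontal log axis; points coloured by group; the tick is the mean of 12 libraries), ordered by mean. The levels span from 5.29 TPM for Tfeb to 1002 TPM for Ctsl, while the 4 groups overlap for most genes.

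The genes differed in how steady they were within a group. The SD within groups on the log2 CPM scale had a median of 0.17 for the members and 0.20 for all 13453 genes tested. Becn1 (0.059), Glb1 (0.085), Asah1 (0.092) and Wipi1 (0.094) varied least. Ctss (0.40), Sqstm1 (0.37), Map1lc3a (0.34), Ctsl (0.31) and Ctsd (0.30) varied most. Ctss, a protease of antigen-presenting cells, had 270.6, 279 and 227 CPM at the high dose, 355, 209.5 and 299.5 CPM at the low dose, 331, 300.3 and 141 CPM under stress, and 281, 255 and 273 CPM in controls. Stress replicate 3 was lowest of all for Ctss, as it was for Lamp2, Npc2 and Gla. CPM here are counts scaled to library size and by TMM factors, which correct for library composition but not for transcript length.

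Against stress, tumours of the low-dose group had higher average levels of 25 of the 32 genes and lower levels of 7, while 49.9% of all genes tested were on the higher side. The members' median log2 fold change was 0.20, against -0.0004 for all genes. The medians of the proteases (0.28), the LC3 and GABARAP family (0.36) and the proton pump subunits (0.25) lay above 0, and that of the initiation genes was -0.01. No member passed edgeR's quasi-likelihood test with Benjamini-Hochberg adjustment, the smallest adjusted p being 0.296, and no gene of all those tested did. DESeq2 called 95 genes (0.706%) and none of the members, and limma-voom called no gene. At an unadjusted p under 0.05 there were 6 members of 32, 5 higher and 1 lower, beside 13.4% of all genes (6.8% higher and 6.55% lower).

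Cathepsin D, the main aspartic protease of the lysosome (Ctsd, chr7:142375910-142387827), had 501, 731 and 439 CPM at the low dose, against 337, 376 and 268 CPM under stress. All 3 low-dose libraries lay above all 3 stress libraries, and low dose replicate 2 was the highest of all 12. The log2 fold change was 0.77 (SE 0.22, 1.70-fold, adjusted p = 0.296 by edgeR), and it was 0.53 without low dose replicate 2 and 0.58 on the log2(TPM + 1) scale. Of the 50-base words of its longest coding transcript, 36.6% also occur in transcripts of the predicted gene Gm49369, so the authors' counting could have split its reads. For Ctsl the share was 6.9% (Gm49230 and others) and for Glb1 4.94% (Tmppe).

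Cathepsin L (Ctsl, chr13:64361890-64370772) had 679, 1149 and 1322 CPM at the low dose, against 603, 773 and 590.4 CPM under stress. Low dose replicates 2 and 3 stood above all stress libraries and replicate 1 among them. The log2 fold change was 0.68 (SE 0.22, adjusted p = 0.296 by edgeR). Without low dose replicate 1 it was 0.91 with an adjusted p of 0.0202, and Atp6v1h was at 0.44 with an adjusted p of 0.0333, while 9.12% of all genes were then called. Without low dose replicate 3, 1 of the muscle-rich libraries, the Ctsl value was 0.48.

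Of the other proteases, Ctsz had 268, 344 and 323 CPM at the low dose and 275, 263 and 233 CPM under stress, a log2 fold change of 0.28 (SE 0.12, adjusted p = 0.356 by edgeR). Its groups overlapped through low dose replicate 1. The value was 0.12 with offsets for transcript length and GC content, and 0.11 on the log2(TPM + 1) scale. Ctsb had 942, 959 and 733 CPM at the low dose and 701, 826 and 602 CPM under stress. Those groups overlapped as well. The 7 proteases had a median of 0.28, with 6 above 0 and Tpp1 below.

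Atp6v1h, a subunit of the cytosolic part of the pump (chr1:5082978-5163213), had 80.4, 107 and 97.4 CPM at the low dose and 70.0, 82.3 and 73.6 CPM under stress. Only the highest stress library reached into the low-dose range. The log2 fold change was 0.33 (SE 0.12, adjusted p = 0.315 by edgeR), and it was 0.16 on the log2(TPM + 1) scale. Atp6v0d1, of the membrane part, had 53.0, 69.5 and 43.2 CPM at the low dose and 47.4, 54.0 and 46.5 CPM under stress, with low dose replicate 3 lowest of the 6.

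Wipi1 (chr11:109573521-109611389) went the other way, with 62.2, 53.8 and 60.0 CPM at the low dose, all below the 65.0, 72.0 and 70.5 CPM under stress. Its log2 fold change was -0.24 (SE 0.10, adjusted p = 0.341 by edgeR), and -0.40 on the log2(TPM + 1) scale. Becn1 lay within 117 to 131 CPM at the low dose and 122 to 125 CPM under stress. Ulk1 had 35.7, 33.1 and 38.4 CPM at the low dose and 28.7, 42.7 and 33.9 CPM under stress, so that the low-dose values fell inside the spread of the stress libraries.

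Glb1 (chr9:114401078-114474379) had 55.3, 57.3 and 58.8 CPM at the low dose and 49.9, 45.7 and 52.5 CPM under stress, and was the last of the 6 members with an unadjusted p under 0.05. Its groups did not overlap, as was also the case for Ctsd and Atg5. These 3 members stood wholly higher at the low dose, beside 5.37% of all genes, and in TPM Ctsd alone of the 3 did so. Asah1 and Wipi1 stood wholly lower in CPM, beside 6.57%, and did so in TPM too. Asah1 had 398, 409 and 403 CPM at the low dose and 414, 458 and 479 CPM under stress. The remaining glycosidases Gaa, Gla and Hexa overlapped between the groups, and their highest low-dose value was that of replicate 2.

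All 4 genes of the LC3 and GABARAP family, whose proteins decorate the autophagosome, had positive values with a median of 0.36, and low dose replicate 2 carried much of it. Map1lc3a had 16.7, 27.2 and 12.8 CPM at the low dose and 10.9, 16.7 and 11.7 CPM under stress. Map1lc3b had 128, 197 and 113 CPM at the low dose, against 115, 147 and 132 CPM under stress. For each of the 4 genes replicate 2 was the highest of all 12 libraries, and without it the family's median was 0.12. Sqstm1 showed the same library, with 398, 843 and 448 CPM at the low dose and 358, 619 and 390.2 CPM under stress, and without that library its log2 fold change was -0.10.

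The log2(TPM + 1) scale moved the median of all genes between the low dose and stress to -0.14. There the members' median was 0.03, still above that of all genes, with 17 above and 15 below 0. The split around 0 was thus nearly even, but 0 lay above the median of all genes on that scale. Values of single genes on that scale were not adjusted for this shift. The conjugation enzymes Atg5 and Atg7 lay above 0 in CPM and below 0 in TPM. Without low dose replicate 2 the members' median in CPM was 0.12, with 22 above and 10 below 0, and with offsets for length and GC content it was 0.13, with 27 above and 5 below.

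**Figure D2:**
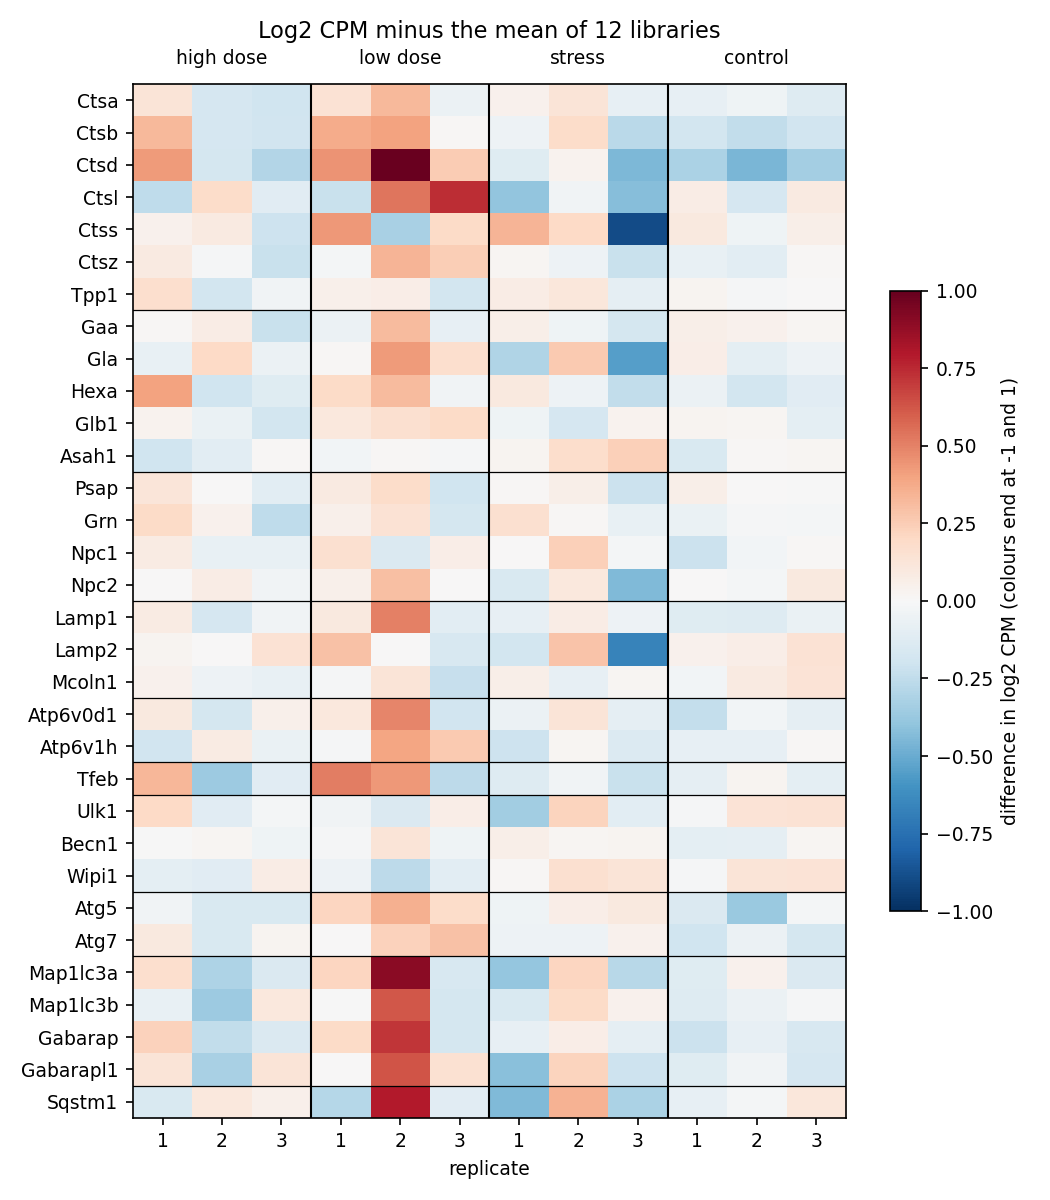
Log2 CPM of each member (rows, grouped by role) minus its mean over 12 libraries, for the replicates of the 4 groups (columns); red is above and blue below the mean, with colours ending at -1 and 1. Low dose replicate 2 is red in most rows, with an average over the members of 0.31, and stress replicate 3 is the bluest, with an average of -0.18.

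Averaged over the 32 genes, log2 CPM relative to the mean of the libraries was 0.07, -0.09 and -0.08 at the high dose, 0.09, 0.31 and 0.01 at the low dose, -0.08, 0.09 and -0.18 under stress, and -0.07, -0.06 and -0.03 in controls. The 3 low-dose libraries lay above all 3 control libraries but overlapped with the stress and high-dose libraries. Macrophage markers were set beside these averages. Of 17 such genes, all tested, 9 lay above and 8 below 0 between the low dose and stress, with a median of 0.06. Their sum was 2488, 1403 and 1516 CPM at the high dose, 2840, 1873 and 1760 CPM at the low dose, 1965, 2044 and 1281 CPM under stress, and 1503, 1441 and 1335 CPM in controls. Lyz2, the lysozyme of these cells, made up much of the sum, with 1362, 1051 and 902 CPM at the low dose and 759, 874 and 401 CPM under stress. Without it the sum of the other 16 was 1372, 826 and 875 CPM at the high dose, 1479, 822 and 858 CPM at the low dose, 1206, 1169 and 881 CPM under stress, and 931, 931 and 814 CPM in controls, so that low dose replicates 2 and 3 lay below all stress libraries. The library with the largest sum of all 17 also had the highest member average at the high dose and under stress, but not at the low dose, and in controls it had the lowest. None of the 17 was at 0 in any library, and the part of macrophages in the members' values was not tested. All 10 dendritic cell markers were below their stress level at the low dose, 7 of them with an unadjusted p under 0.05, beside 6.55% of all genes on the lower side. These 7 were near the floor, at or under 2.64 CPM in each low-dose library, with Flt3 at 0.79, 0.23 and 0.06 CPM. The sum of all 10 was 19.7 to 36.6 CPM at the low dose and 38.6 to 76.0 CPM under stress, and none was at 0 in any library. Itgax and Zbtb46, not among the 7, made up most of it. They had 5.52 and 10.1 CPM in low dose replicate 2 and 38.3 and 14.5 CPM in stress replicate 1. Fibroblast markers summed to 5987 to 19130 CPM at the low dose and 10990 to 14200 CPM under stress. Col3a1 made up most of the sum, with 16650, 9130 and 3436 CPM at the low dose. Of the 8 fibroblast markers 6 lay above and 2 below 0 against stress, with a median of 0.32. The part of these cells was not tested either.

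Compared with controls, low-dose tumours gave the largest median of the 6 comparisons. It was 0.24, against 0.0032 for all genes, with 27 above and 5 below 0, beside 50.5% of all genes above 0. When low dose replicate 2 was left out it was 0.12, with 23 above and 9 below 0, and on the log2(TPM + 1) scale, where the median of all genes was -0.14, it was 0.05, with 18 above and 14 below. With edgeR's quasi-likelihood test no member and no gene passed adjustment, the smallest adjusted p of a member being 0.316, and 7 members had an unadjusted p under 0.05, beside 13.2% of all genes. Of these, Ctsb, Ctsd, Atp6v1h, Atg5, Atg7 and Gabarap were higher, beside 6.45% of all genes, and Wipi1 was lower, beside 6.73%. Groups did not overlap for 7 members on the higher side (Ctsb, Ctsd, Hexa, Glb1, Atg5, Atg7 and Gabarapl1; 7.65% of all genes) and for Wipi1 on the lower side (9.74%). In TPM the groups of Ctsb, Ctsd, Ctsz and Atp6v1h did not overlap on the higher side, nor those of Ulk1 and Wipi1 on the lower.

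In that comparison Ctsd stood at 501, 731 and 439 CPM at the low dose and 296, 268 and 289 CPM in controls, the largest fold change of any member in any comparison (log2 0.97, SE 0.22, 1.96-fold, adjusted p = 0.316 by edgeR). DESeq2 called it with a log2 fold change of 0.99 and an adjusted p of 0.00746, where it called 71 genes in all, or 0.528%. Without low dose replicate 1 edgeR called Ctsd at 1.04 (adjusted p = 0.0426) and Ctsl at 0.63 (adjusted p = 0.0469), with 4.78% of all genes called. Ctsb had 942, 959 and 733 CPM at the low dose and 640, 614 and 636 CPM in controls, wholly apart, the log2 fold change being 0.48 (SE 0.17, adjusted p = 0.322 by edgeR).

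The conjugation enzymes differed in the same direction. Atg5, whose product is joined to ATG12 in the conjugation machinery (chr10:44268322-44364299), had 33.8, 37.2 and 33.1 CPM at the low dose and 26.2, 22.3 and 28.7 CPM in controls (log2 fold change 0.43, SE 0.11, adjusted p = 0.316 by edgeR). Atg7, the activating enzyme of both conjugation systems (chr6:114643127-114860604), had 30.1, 35.3 and 36.9 CPM at the low dose and 26.2, 28.8 and 26.5 CPM in controls (0.33, SE 0.11, adjusted p = 0.322 by edgeR). Neither gene's groups overlapped in CPM, and both genes' groups did in TPM. Atg7 had 17.2, 14.6 and 18.7 TPM at the low dose and 14.8, 17.7 and 14.8 TPM in controls. On the log2(TPM + 1) scale Atg5 had 0.15 (adjusted p = 0.528 by limma) and Atg7 0.09 (adjusted p = 0.775 by limma). Atp6v1h stood 0.28 above controls (SE 0.12, adjusted p = 0.348 by edgeR), with 76.4, 76.6 and 81.4 CPM in the controls and 1 low-dose library among them. Its value was 0.11 on the log2(TPM + 1) scale (adjusted p = 0.555 by limma).

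**Figure D3:**
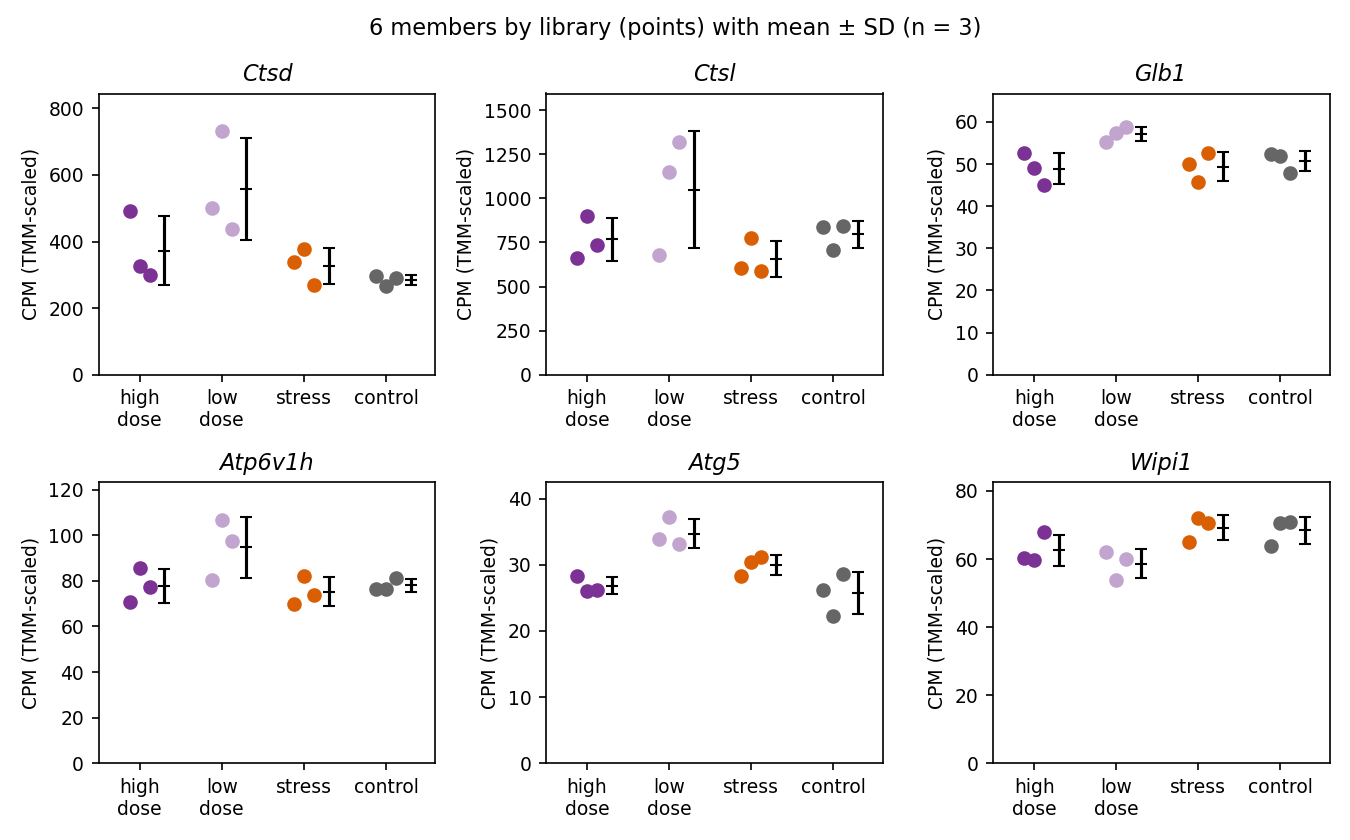
CPM of 6 members in each library (points), with the mean and SD of each group of 3 libraries beside them, on axes that start at 0. Ctsd, Glb1 and Atg5 in the low-dose libraries lie above all stress and all control libraries, and Wipi1 below them.

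Between the doses the direction was the opposite one. High-dose tumours had lower averages than low-dose tumours for 27 of 32 members and higher averages for 5, with a median of -0.19 against 0.0042 for all genes, of which 50.8% were higher. No member or other gene passed edgeR's adjusted test (smallest adjusted p of a member 0.758), and DESeq2 called 5 genes (0.0372%) and no member. Ctsd, Glb1, Atp6v1h and Atg5 had an unadjusted p under 0.05 on the lower side, beside 3.64% of all genes lower, 2.75% higher and 6.39% in all. Glb1 and Atg5 did not overlap in CPM, beside 3.18% of all genes on the lower side, and Atg5 alone did not in TPM, and no member stood wholly higher, beside 4.16%. Without low dose replicate 1 edgeR called 0.726% of all genes and no member. On the log2(TPM + 1) scale the median of all genes was 0.14 and that of the members -0.0004, and without low dose replicate 2 the members' median in CPM was -0.06.

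Atg5 gave the smallest p between the doses, with 28.3, 26.1 and 26.1 CPM at the high dose and 33.8, 37.2 and 33.1 CPM at the low dose (log2 fold change -0.37, SE 0.11, adjusted p = 0.758 by edgeR). Glb1 had 52.6, 49.0 and 45.1 CPM at the high dose and 55.3, 57.3 and 58.8 CPM at the low dose (-0.22, SE 0.09, adjusted p = 0.758 by edgeR). Ctsd had 493, 325 and 300.2 CPM at the high dose, so that replicate 1 lay inside the low-dose range and the other 2 below it (-0.58, SE 0.22). Atp6v1h differed by -0.28 (SE 0.12) and Ctsl by -0.45 (SE 0.22), both with an adjusted p of 0.758 by edgeR. Ctsl at the high dose had 665, 903 and 734 CPM. On the log2(TPM + 1) scale Atg5 had -0.13, Glb1 -0.06, Atp6v1h -0.11 and Ctsl -0.24, with adjusted p from 0.566 to 0.798 by limma. The value of Ctsd was -0.34 without low dose replicate 2, and that of Ctsl was -0.25 without low dose replicate 3.

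Against stress, high-dose tumours had 18 members above and 14 below 0, and the median was 0.01, beside -0.0038 for all genes, of which 48.9% lay above 0. With edgeR no member and no gene passed adjustment (adjusted p = 0.9998 for each member), and DESeq2 and limma-voom called none either. Acid ceramidase, which splits ceramide into sphingosine and a fatty acid (Asah1, chr8:41340646-41397644), was the only member with an unadjusted p under 0.05, beside 1.42% of all genes (0.825% higher and 0.595% lower). It had 353, 378 and 410.3 CPM at the high dose, all below the 414, 458 and 479 CPM under stress (log2 fold change -0.24, SE 0.10). Becn1 also did not overlap, with 119.9, 121.9 and 116.7 CPM at the high dose and 124.9, 121.9 and 122.7 CPM under stress, a gap smaller than the spread within either group. These were 2 members wholly lower in CPM, beside 3.32% of all genes, and no member was wholly higher, beside 2.43%. In TPM no member stood wholly lower or higher. Asah1 there had 323, 330 and 382 TPM at the high dose and 378, 415 and 430 TPM under stress, so that its groups overlapped.

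The other members with the smallest p against stress at the high dose were Wipi1 (-0.14, SE 0.10), Atg5 (-0.16, SE 0.11), Npc2 (0.16, SE 0.13) and Ctsl (0.23, SE 0.22). All 4 had an adjusted p of 0.9998 by edgeR. Npc2 hands cholesterol to Npc1, and it had 321, 338 and 313 CPM at the high dose against 289.5, 346 and 237 CPM under stress, so that the high-dose libraries lay inside the spread of the stress libraries. With each library left out in turn its log2 fold change ran from 0.04 to 0.30 and that of Ctsl from 0.09 to 0.36. Wipi1 had 60.2, 59.7 and 67.8 CPM at the high dose, with replicate 3 inside the stress range.

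**Figure D4:**
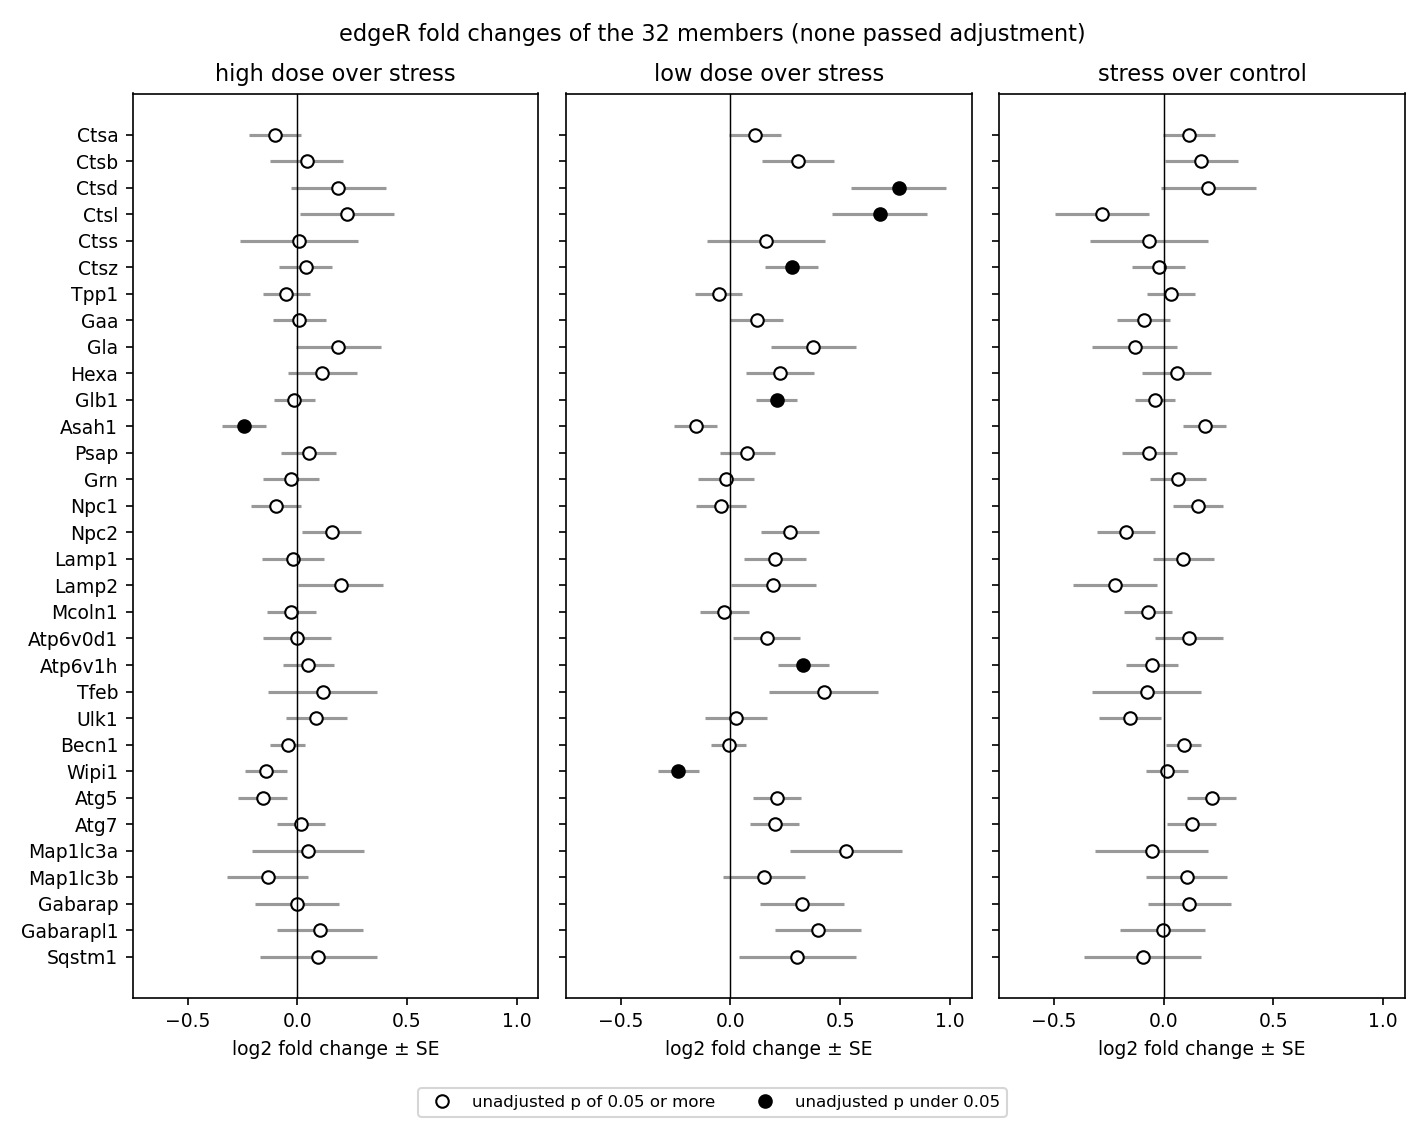
Log2 fold changes of the 32 members with their SE from edgeR, for high dose over stress, low dose over stress and stress over control (filled circles have an unadjusted p under 0.05). The low-dose panel lies mostly right of 0, with Ctsd at 0.77 and Wipi1 at -0.24, while the high-dose panel has 18 above and 14 below 0 and the stress panel 16 above and 16 below.

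Chronic stress alone, set against controls, divided the members evenly, 16 above and 16 below 0, with a median of 0.0050 beside 0.0059 for all genes, of which 51.7% lay above 0. No gene passed edgeR's adjusted test (adjusted p = 0.9999 for each member). No member had an unadjusted p under 0.05, beside 2.85% of all genes (1.1% higher and 1.75% lower), and DESeq2 called 1 gene (0.00743%) that was not a member. Asah1, Becn1 and Atg7 were wholly higher in CPM under stress, beside 7.08% of all genes, and no member was wholly lower, beside 7.02%. The gaps of Becn1 and Atg7 were small. The lowest stress library of Becn1 had 121.9 CPM and the highest control 121.7 CPM, and Atg7 had 28.97 and 28.77 CPM there. In TPM Asah1, Becn1 and Lamp1 were wholly higher, and Atg7 overlapped. Asah1 had 414, 458 and 479 CPM under stress and 364, 409.9 and 412 CPM in controls (log2 fold change 0.19, SE 0.10). Atg5 gave the smallest p, at 28.2, 30.5 and 31.1 CPM under stress and 26.2, 22.3 and 28.7 CPM in controls (0.22, SE 0.11), where 1 control library lay among the stress values.

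Next came Npc1, the cholesterol exporter of the lysosomal membrane (0.16, SE 0.11), Ctsl (-0.28, SE 0.22) and Npc2 (-0.17, SE 0.13), all with an adjusted p of 0.9999 by edgeR. Npc2 had 289.5, 346 and 237 CPM under stress and 323, 317 and 344 CPM in controls, with the stress libraries on both sides of the controls. Ctsl had 603, 773 and 590.4 CPM under stress and 835, 708 and 844 CPM in controls, where only stress replicate 2 reached the control range. With each library left out in turn Npc2 ran from -0.32 to -0.05 and Npc1 from 0.07 to 0.20.

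High-dose tumours set against controls had 17 members above and 15 below 0 and a median of 0.0080 beside 0.0017 for all genes, of which 50.5% lay above 0. No member had an unadjusted p under 0.05, beside 1.04% of all genes (0.58% higher and 0.461% lower), and no gene passed edgeR's adjusted test (adjusted p = 1.0 for each member), while DESeq2 called 1 gene (0.00743%), not a member. Ctsd was the only member whose groups did not overlap, beside 3.77% of all genes on the higher side and 4.93% on the lower. It had 493, 325 and 300.2 CPM at the high dose and 296, 268 and 289 CPM in controls, and its log2 fold change of 0.39 (SE 0.22) was 0.14 when 1 high-dose library, replicate 1, was left out. The next were Wipi1 (-0.13, SE 0.10), Atg7 (0.14, SE 0.11), Ctsb (0.22, SE 0.17; 0.03 without high dose replicate 1) and Hexa (0.17, SE 0.16). In Hexa, which had 129.5, 84.8 and 89.9 CPM at the high dose and 93.9, 85.8 and 90.1 CPM in controls, replicate 1 alone lay above the controls.

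Tfeb, the transcription factor that drives lysosomal genes when it is in the nucleus, was the least abundant member (chr17:47737037-47792416). It had 7.72, 4.59 and 5.52 CPM at the high dose, 8.82, 8.34 and 4.94 CPM at the low dose, 5.48, 5.89 and 5.10 CPM under stress and 5.62, 6.16 and 5.59 CPM in controls. High dose replicate 1 and low dose replicates 1 and 2 stood apart from the other 9 libraries, and the groups overlapped in each comparison. The members with and without an E-box in the window had like values between the low dose and stress. Their medians were 0.20 for the 11 with a box, 10 of them above 0, and 0.20 for the 15 without, 12 of them above 0. Against controls the medians at the low dose were 0.28 for those with and 0.10 for those without a box, with no test of the difference. The level of Tfeb RNA says nothing of the protein's place in the cell.

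The comparisons of each dose with stress share the stress libraries, and those with controls share the control libraries. Another 124 genes of the same pathways were all tested. Against stress at the low dose, 62 lay above and 62 below 0 (median 0.0011). The other 16 proton pump subunits did lean as the members did, with 14 above 0, a median of 0.26 and 7 higher with an unadjusted p under 0.05, beside 6.8% of all genes, none adjusted by edgeR. Their median was 0.10 without low dose replicate 2, with 3 such genes, beside 8.13% of all genes in either direction. On the log2(TPM + 1) scale it was 0.11, with 11 above 0. The other initiation and membrane genes leaned the other way, with 12 of 16 below 0 and a median of -0.12. So did the 12 genes of autophagosome and lysosome fusion, with 3 above and 9 below 0 and a median of -0.12. Against controls 4 of these fusion genes lay above and 8 below 0. Vamp8, described next, is 1 of the few fusion genes that were higher.

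Atp6v0e, a small subunit of the membrane part of the pump, had 50.6, 58.0 and 54.0 CPM at the low dose, wholly above the 40.9, 42.4 and 38.8 CPM under stress (log2 fold change 0.41, SE 0.09, adjusted p = 0.266 by edgeR). Vamp8, a fusion protein of vesicles and lysosomes, had 55.9, 57.7 and 52.4 CPM at the low dose and 44.5, 43.8 and 36.2 CPM under stress (0.41, SE 0.12, adjusted p = 0.296 by edgeR). Both stood wholly above the controls too, where Atp6v0e had 41.8, 41.0 and 41.9 CPM and Vamp8 had 37.9, 39.2 and 40.8 CPM. Wholly higher at the low dose were 5.37% of all genes against stress and 7.65% against controls. Atp6v0e and Vamp8 are named because they had the smallest p of the 124 in both comparisons. Their values in TPM or with libraries left out are not given here. At the high dose Atp6v0e had 47.6, 44.7 and 43.6 CPM, between the low dose and stress. Under stress, 92 of the 124 genes lay above and 32 below their control level, with a median of 0.07 against 0.0059 for all genes, of which 51.7% lay above 0. An unadjusted p under 0.05 was found for 3 of the 124, that is 2.42%, beside 2.85% of all genes.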

How the data were processed

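Poly(A)-selected, strand-marked libraries were read from both ends, per the labels' protocols. The authors used cutadapt 1.9, HISAT2 2.0.4, StringTie 1.3.4d, the GRCm38.p6 genome, DESeq2 and edgeR, per the submitters' processing notes; the annotation and counting options were not given in the sources used here. The estimated counts deposited by the authors (11.7% to 12.5% not whole) were rounded; whole counts had been assumed when the tests were chosen. The TPM deposited by the authors gave levels between genes. The FPKM deposited by the authors were not used.

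In R 4.3.3, genes were kept with a minimum count of 10 (filterByExpr) and fitted by edgeR 4.0.16 (TMM factors, robust quasi-likelihood) in 1 model of all 12 libraries, with Benjamini-Hochberg adjustment over the 13453 genes tested and a threshold of 0.05, for 6 comparisons. The tests were 2-sided, with 8 residual degrees of freedom, a common dispersion of 0.038 and a median SE of 0.16 over genes and comparisons. DESeq2 1.42.0, limma 3.58.1 on voom weights and on log2(TPM + 1), other filters, factors and offsets, a replicate block and left-out libraries were alternatives. The pipeline was checked on simulated data. Fold changes are given for the 5 members with the smallest p in each comparison, since fewer than 5 passed adjustment, and for up to 3 other pathway genes. Promoter windows and gene coordinates came from RefSeq and transcript sequences from GENCODE, both GRCm38. Total counts of 16734741 to 17950195 per library set the precision. The members and lists were chosen with earlier results of these data known.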

Additional observations from a re-analysis of the deposited data

How the results depend on the processing

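With libraries left out in turn, the number of members called by edgeR, 0 with all libraries, was 0 to 2 against stress and 0 to 2 against controls at the low dose. Members with an unadjusted p under 0.05 then numbered 3 to 11 for low dose against stress (8.13% to 28.4% of all genes), 4 to 13 for low dose against control (6.6% to 25.9%), 1 to 10 for high against low dose (3.4% to 22.2%), 0 to 3 for high dose against stress (0.743% to 3.09%), 0 to 1 for high dose against control (0.499% to 2.41%) and 0 to 4 for stress against control (1.67% to 5.39%). The highest number of members came without low dose replicate 3 in each of the first 3, where 1638, 2214 and 1116 of 13612 genes were under 0.05, and the highest share of all genes without low dose replicate 1. In 3 comparisons the log2(TPM + 1) scale, which also shifted the median of all genes, moved the members' median further than any left-out library did. The medians there were 0.034 (low dose against stress), 0.055 (low dose against control) and -0.0004 (high against low dose), and 4 members for low dose against control (16.2% of all genes) and 0 between the doses (9.24%) had an unadjusted p under 0.05. DESeq2 called 1 member for low dose against control. With only the 6 libraries compared, the number with an unadjusted p under 0.05 was 3 for low dose against stress (6.08% of all genes) and 2 for high against low dose (2.34%). With the muscle score as a covariate it was 10 for low dose against stress (14.3%) and 0 for high dose against stress (1.25%). Without the 3 muscle-rich libraries it was 11 for low dose against control (10.7%) and 0 for high dose against stress (0.816%). With limma-voom it was 0 for high dose against stress (2.62%) and 1 for stress against control (1350 of 13453 genes). The cause was not tested. Of the fold changes of the 5 members with the smallest p in each comparison, that of Hexa between high dose and control was the only one to turn sign under these alternatives, without high dose replicate 1, in a range from -0.042 to 0.287 over the libraries left out.

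Nothing in the labels pairs the libraries by replicate number. Deviations of same-numbered libraries from their group means correlated at -0.45 to 0.42 (median -0.02, 18 pairs), and 5 of 12 libraries correlated best with their own number. With 3 libraries a group these values cannot settle whether the libraries were paired. With the replicate block the members' median for low dose against stress was 0.21, 7 members had an unadjusted p under 0.05 and none was called. In edgeR, TMM factors were exchanged for RLE (relative log expression) factors, either other filter was used, or length and GC offsets were added. Each of these left every count of members within 1.5 times and every median within 1 SD of the library medians. With 3 libraries a group and a median SE of 0.16, small differences were not detectable.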
